A study of Homo sapiens with 30 samples.

Results

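The genes described here are 30 genes of cholesterol and fatty acid synthesis that sterol regulatory element–binding proteins (SREBPs) are known to control. They were taken from a list of names, and each was read by 1 probe set that carries its symbol alone, the one with the highest mean over all 30 arrays. Of the 30 listed genes, 27 had such a probe set, among 19775 genes measured this way. The other 3, FDFT1, CYP51A1 and FADS1, were not analysed here. The measured genes fall into 7 genes of the acetyl-CoA and mevalonate steps, 9 of the squalene and sterol steps, 4 regulators and sterol transport genes, and 7 of fatty acid synthesis and acetoacetate use.

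The RNA came from LOUCY, an established human cell line from an early T cell precursor leukemia (ETP-ALL) that expresses MEF2C from a rearranged locus, profiled on Affymetrix HG U133 Plus 2.0 arrays. All cells carried a construct that doxycycline (dox) switches on: MEF2C (LOUCY_MEF2C-BFP cells), intracellular NOTCH1 (ICN), or both, and each was profiled with dox and without. LOUCY_MEF2C-BFP cells were kept in medium alone or over a layer of OP9-GFP or OP9-DL1 stroma, the others in medium alone, which gives 10 groups of 3 arrays. The OP9 line comes from mouse bone marrow stroma, and its DL1 form presents Delta-like 1, which activates Notch. The lines are sorted bulk lentiviral transductants, the induced MEF2C is a codon-optimized form without its β domain that carries BFP, and human cocultures were given SCF, FLT3L and IL-7 by the study's methods. No cells without an inducible construct were given dox in these data, so dox itself and the induced gene cannot be told apart. Stroma, its cytokines and its medium cannot be told apart either. Whether the 3 arrays of a group were cultured separately is not in the labels. The p-values then cover the spread among these arrays alone, which may be technical.

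SREBPs are transcription factors held in the endoplasmic reticulum by their escort SCAP and by INSIG proteins while sterols are plentiful. When sterols fall, they move to the Golgi, are cut free and enter the nucleus, where SREBP2 (from SREBF2) acts mostly on cholesterol synthesis and uptake and SREBP1 (from SREBF1) mostly on fatty acid synthesis. INSIG1 is itself a target and closes the loop, and dividing lymphocytes use the pathway to build membranes. SREBPs bind sterol response elements, usually beside sites of NF-Y, which reads CCAAT boxes, and of SP1, which reads GC boxes.

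The promoters of 4 members are shown: INSIG1 and MSMO1, which fell most on stroma, ELOVL6, which fell in all 5 inductions by dox, and SREBF2, whose own promoter holds a sterol response element core. Each runs from 250 bases before to 50 after the start site in RefSeq, build GRCh38.p14, and capitals mark CCAAT boxes on either strand and the sterol response element core. In the order printed, they lie at chr7:155297628-155297927 (plus strand), chr22:41832855-41833154 (plus strand), chr4:165327419-165327718 (plus strand) and chr4:110198566-110198865 (minus strand).
INSIG1: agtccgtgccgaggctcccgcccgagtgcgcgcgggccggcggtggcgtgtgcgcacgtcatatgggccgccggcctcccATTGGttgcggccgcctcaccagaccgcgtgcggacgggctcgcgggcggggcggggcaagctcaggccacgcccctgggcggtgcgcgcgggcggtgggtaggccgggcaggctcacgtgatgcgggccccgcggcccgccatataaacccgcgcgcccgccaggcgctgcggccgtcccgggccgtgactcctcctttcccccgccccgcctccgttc
SREBF2: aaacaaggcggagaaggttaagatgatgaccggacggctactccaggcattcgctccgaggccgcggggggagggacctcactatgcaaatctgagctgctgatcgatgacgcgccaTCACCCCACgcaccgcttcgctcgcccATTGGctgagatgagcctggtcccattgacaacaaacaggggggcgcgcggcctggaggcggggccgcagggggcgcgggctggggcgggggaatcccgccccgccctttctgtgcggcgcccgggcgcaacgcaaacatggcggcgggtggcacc
MSMO1: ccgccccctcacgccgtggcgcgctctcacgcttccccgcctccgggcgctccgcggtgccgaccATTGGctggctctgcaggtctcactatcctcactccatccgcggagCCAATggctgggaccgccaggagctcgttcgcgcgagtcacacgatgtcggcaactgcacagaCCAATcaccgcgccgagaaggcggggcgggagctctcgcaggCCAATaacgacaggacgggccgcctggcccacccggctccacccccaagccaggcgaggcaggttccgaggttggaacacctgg
ELOVL6: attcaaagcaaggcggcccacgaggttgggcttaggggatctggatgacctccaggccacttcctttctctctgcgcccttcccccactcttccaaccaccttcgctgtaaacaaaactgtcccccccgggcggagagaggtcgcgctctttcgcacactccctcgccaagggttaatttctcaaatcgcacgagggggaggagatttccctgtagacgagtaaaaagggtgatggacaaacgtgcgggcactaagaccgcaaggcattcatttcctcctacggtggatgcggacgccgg
SREBF2 holds the core as TCACCCCAC. Promoters of 26 of the 30 listed genes were searched, and those of ACAT2, FDFT1, SQLE and FASN were not. SREBF2 was the 1 gene to match TCACNCCAC on either strand, which makes 2.86% of 35 member promoters against 1.13% of all 35116. CCAAT boxes stood in 68.6% of the member promoters against 34.6% of all, and in 20 of the 26 genes. MSMO1 has 4 of them and ELOVL6 has 0. The GC box GGGCGG was in 88.6% against 45%. The E-box CACGTG was in 11.4% against 7.26%, in INSIG1, LSS and SC5D. These matches describe letters in a window and are not measured binding.

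Within a group the arrays had correlations of 0.990 to 0.998 over probe sets. The authors' RMA normalization gives each array the same distribution, which hides any change in RNA content per cell. In bulk RNA, fewer cells with a transcript and less of it per cell cannot be told apart. LOUCY markers CD3D (group means 11.08 to 13.01) and PTPRC (9.98 to 11.64) were bright, whereas CD34 (5.23 to 5.48), KIT (2.50 to 2.98) and CD2 (3.37 to 3.71) were dim. Of 3 MEF2C probe sets, 1 rose with dox by 0.53 in medium, 1.23 on OP9-GFP stroma, 0.63 on OP9-DL1 and 0.66 in the line with both constructs (the joint line), while the other 2 fell there, with differences from -0.98 to -2.28. By the study's figure legend, all but 1 of the MEF2C probe sets lie outside the cloned sequence and read endogenous MEF2C. The remaining 1 also covers the construct. The study reports that induced MEF2C represses the endogenous gene. The legend does not give the names of these probe sets, and matching them to those here was not tested. NOTCH1 rose by 0.56 in the ICN line and 0.81 in the joint line on 1 of its 2 probe sets, and the other did not pass there. The probe set that rose was dim, with a mean of 4.42 beside array medians of 4.76 to 4.84. The other, with a mean of 7.64, rose by 0.32 with dox in LOUCY_MEF2C-BFP cells in medium. In the ICN line all 3 MEF2C probe sets fell with dox, at -0.48, -0.26 and -0.32. Control probe sets for RNA quality set 2 arrays apart: OP9-GFP without dox replicate 2 had a 3′ minus 5′ difference of 0.79 for GAPDH, and ICN with dox replicate 1 had 0.69, whereas the other 28 lay between -0.03 and 0.18. Below they are called the 2 arrays of low RNA quality, which means low beside the other 28 and not past a set limit. Counts that rest on those arrays are given with and without both.

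All values below are log2 expression values, differences are log2 differences of group means ± SE, and a gene passed at an adjusted p under 0.05 over all 54613 probe sets tested. Levels are compared only within a gene, since probe sets differ in brightness. The members were at their median highest in LOUCY_MEF2C-BFP cells in medium without dox, and 12 of the 27 reached their highest group mean there. Relative to that group, the median difference of the 27 genes was -0.13 in medium with dox, -0.25 on OP9-GFP and -0.43 there with dox, -0.28 on OP9-DL1 and -0.36 with dox. It was -0.28 in the joint line and -0.45 with dox, and -0.03 in the ICN line and -0.28 with dox. The joint line with dox held the lowest group mean of 8 members.

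**Figure D1:**
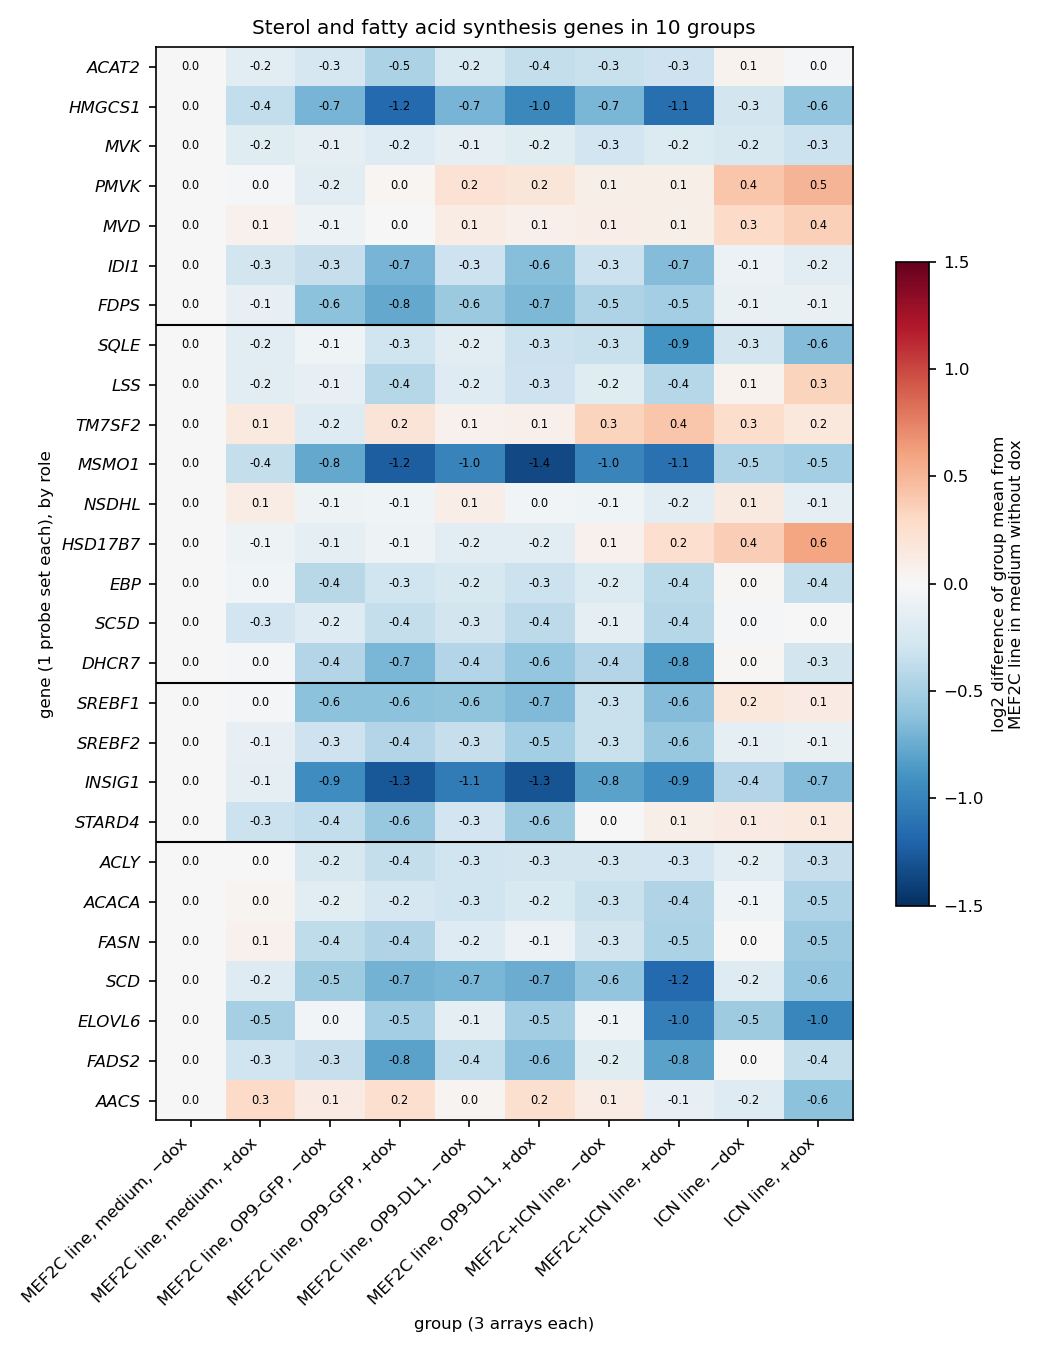
Log2 difference of each group's mean (3 arrays) from LOUCY_MEF2C-BFP cells in medium without dox, for the 27 measured genes in rows, by role, and the 10 groups in columns. Blue is lower: the median of the 27 genes lies at -0.45 in the joint line with dox and at -0.03 in the ICN line without dox. Some genes hold red cells, among them AACS, PMVK, HSD17B7 and TM7SF2.

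The first question is what coculture on control stroma did to the pathway. On OP9-GFP, genes from each branch fell together, led by the feedback regulator INSIG1 and the sterol enzymes MSMO1 and HMGCS1. Without dox 14 of 27 members fell and 0 rose, with a median difference of -0.25, where 8.8% of all probe sets fell and 9.17% rose. With dox 16 fell and 0 rose, with a median of -0.29, where 9.53% of all probe sets fell and 8.53% rose. Over all 19775 genes by their brightest probe set the medians were -0.01 and -0.02, and among the 11331 of these with a mean of at least 5, 17.9% and 20.7% fell. Without the 2 arrays of low RNA quality the counts were 15 and 17.

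The 4 regulators and transport genes all fell in both states. INSIG1, whose protein holds SREBPs back, measured 11.34, 11.35 and 11.20 in medium without dox and 10.37, 10.51 and 10.22 on OP9-GFP. With dox it measured 11.09, 11.17 and 11.20 in medium and 9.97, 10.06 and 10.03 on OP9-GFP. The groups did not overlap in either state. The difference was -0.93 ± 0.07, adjusted p = 1e-09 without dox, a level of 52.5% of that in medium, and -1.13 ± 0.07, adjusted p = 3.5e-11 with dox. All 3 of its probe sets fell in both. SREBF1, the source of SREBP1, measured 8.28, 8.36 and 8.49 in medium and 7.91, 7.63 and 7.75 on OP9-GFP without dox, and 8.36, 8.37 and 8.31 and 7.83, 7.73 and 7.73 with dox. Again the groups were apart, at -0.61 ± 0.08, adjusted p = 6e-06 and -0.59 ± 0.08, adjusted p = 1.1e-05. Its second probe set did not pass, with -0.07 and -0.11. SREBF2, the source of SREBP2, measured 8.18, 8.48 and 8.45 in medium and 8.08, 8.08 and 8.01 on OP9-GFP without dox, and 8.21, 8.23 and 8.29 and 7.96, 8.02 and 7.82 with dox. Its groups lay apart but close, at -0.31 ± 0.09, adjusted p = 0.011 and -0.31 ± 0.09, adjusted p = 0.013, and 1 of its 3 probe sets passed. The value without dox was -0.26, adjusted p = 0.072, when replicate 2 in medium without dox was left out. STARD4, a carrier of sterol between membranes, fell, at -0.37 and -0.25.

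Among the mevalonate genes 4 of 7 fell in each state, and these were HMGCS1, FDPS, IDI1 and ACAT2. HMGCS1, which makes HMG-CoA, measured 10.79, 10.94 and 10.84 in medium and 10.17, 10.21 and 10.10 on OP9-GFP without dox. With dox it measured 10.54, 10.39 and 10.51 and 9.66, 9.68 and 9.74. No array on stroma reached any array in medium of the same dox state. The differences were -0.69 ± 0.07, adjusted p = 6.5e-08 without dox and -0.79 ± 0.07, adjusted p = 8e-09 with dox. Its second probe set did not pass, with -0.97 and -0.40. FDPS, which makes farnesyl diphosphate, fell, at -0.62 and -0.65, and IDI1, the isopentenyl diphosphate isomerase, at -0.35 and -0.42. ACAT2, a cytosolic thiolase at the head of the route, differed, at -0.25 and -0.31. MVK, PMVK and MVD, the kinases and the decarboxylase between them, did not pass in either state.

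Among the squalene and sterol genes 3 of 9 fell in each state. SC5D, at -0.19 and -0.08, is not among them, but the other of its 2 probe sets fell in both states, at -0.97 and -1.02. MSMO1, the C4-methyl sterol oxidase, measured 11.11, 11.17 and 11.02 in medium and 10.31, 10.43 and 10.26 on OP9-GFP without dox, and 10.74, 10.74 and 10.76 and 9.85, 9.86 and 9.90 with dox. The groups were well apart, at -0.77 ± 0.06, adjusted p = 1.5e-09 without dox and -0.88 ± 0.06, adjusted p = 1.4e-10 with dox. DHCR7, which makes the last step to cholesterol in one branch, measured 8.21, 8.39 and 8.50 and 8.02, 7.83 and 7.93 without dox, and 8.50, 8.24 and 8.32 and 7.72, 7.71 and 7.61 with dox. It fell without overlap and on both of its probe sets, at -0.44 ± 0.09, adjusted p = 0.00058 and -0.67 ± 0.09, adjusted p = 3e-06. EBP, the sterol isomerase, fell without dox (-0.42), and LSS, lanosterol synthase, with dox (-0.27). For EBP 1 array on OP9-GFP lay at 8.85 beside 9.40 and 9.39, and without it (replicate 2) the difference was -0.24, adjusted p = 0.071. SQLE, squalene epoxidase and a control point of the route, measured 10.61, 10.63 and 10.62 in medium and 10.51, 10.68 and 10.49 on OP9-GFP without dox, with overlap between the groups and a difference of -0.06 ± 0.06, adjusted p = 0.6. With dox it measured 10.35, 10.47 and 10.53 and 10.37, 10.34 and 10.26, and the difference was -0.12 ± 0.06, adjusted p = 0.2. Of its 4 probe sets 2 fell without dox (to -0.30) and 0 with dox.

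Among the fatty acid genes 3 of 7 fell without dox and 5 with dox. SCD, the stearoyl-CoA desaturase, measured 12.13, 12.20 and 12.14 in medium and 11.57, 11.74 and 11.56 on OP9-GFP without dox, and 11.93, 12.03 and 11.94 and 11.45, 11.48 and 11.42 with dox. The groups were apart, at -0.54 ± 0.06, adjusted p = 1.3e-07 and -0.52 ± 0.06, adjusted p = 2e-07. Its 4 probe sets differed among themselves, from -0.52 to 0.40 with dox, and 2 of them passed, both downward. FADS2, a desaturase of polyunsaturated fatty acids, measured 8.96, 9.09 and 9.29 and 8.99, 8.59 and 8.74 without dox, where the groups overlapped, and 8.91, 8.81 and 8.72 and 8.26, 8.39 and 8.29 with dox, where they did not. Its differences were -0.34 ± 0.09, adjusted p = 0.006 and -0.50 ± 0.09, adjusted p = 0.00015, and without the 2 arrays of low RNA quality the first was -0.25, adjusted p = 0.053. ACLY, which supplies cytosolic acetyl-CoA, fell, at -0.25 and -0.36. FASN and ACACA, the synthase and the carboxylase that feeds it, fell with dox (-0.51 and -0.29), and without dox neither passed. FASN without dox measured 8.45, 8.61 and 8.67 in medium and 8.50, 7.70 and 8.39 on OP9-GFP, where replicate 2, of low RNA quality, lay below the others. ELOVL6, which lengthens the chains that FASN makes, gave -0.04 ± 0.06, adjusted p = 0.74 and -0.01 ± 0.06, adjusted p = 0.95, while 1 of its 3 probe sets fell in both states (-0.42 and -0.36). AACS, which activates acetoacetate for lipid synthesis, gave 0.12 ± 0.06, adjusted p = 0.19 and -0.04 ± 0.06, adjusted p = 0.76.

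**Figure D2:**
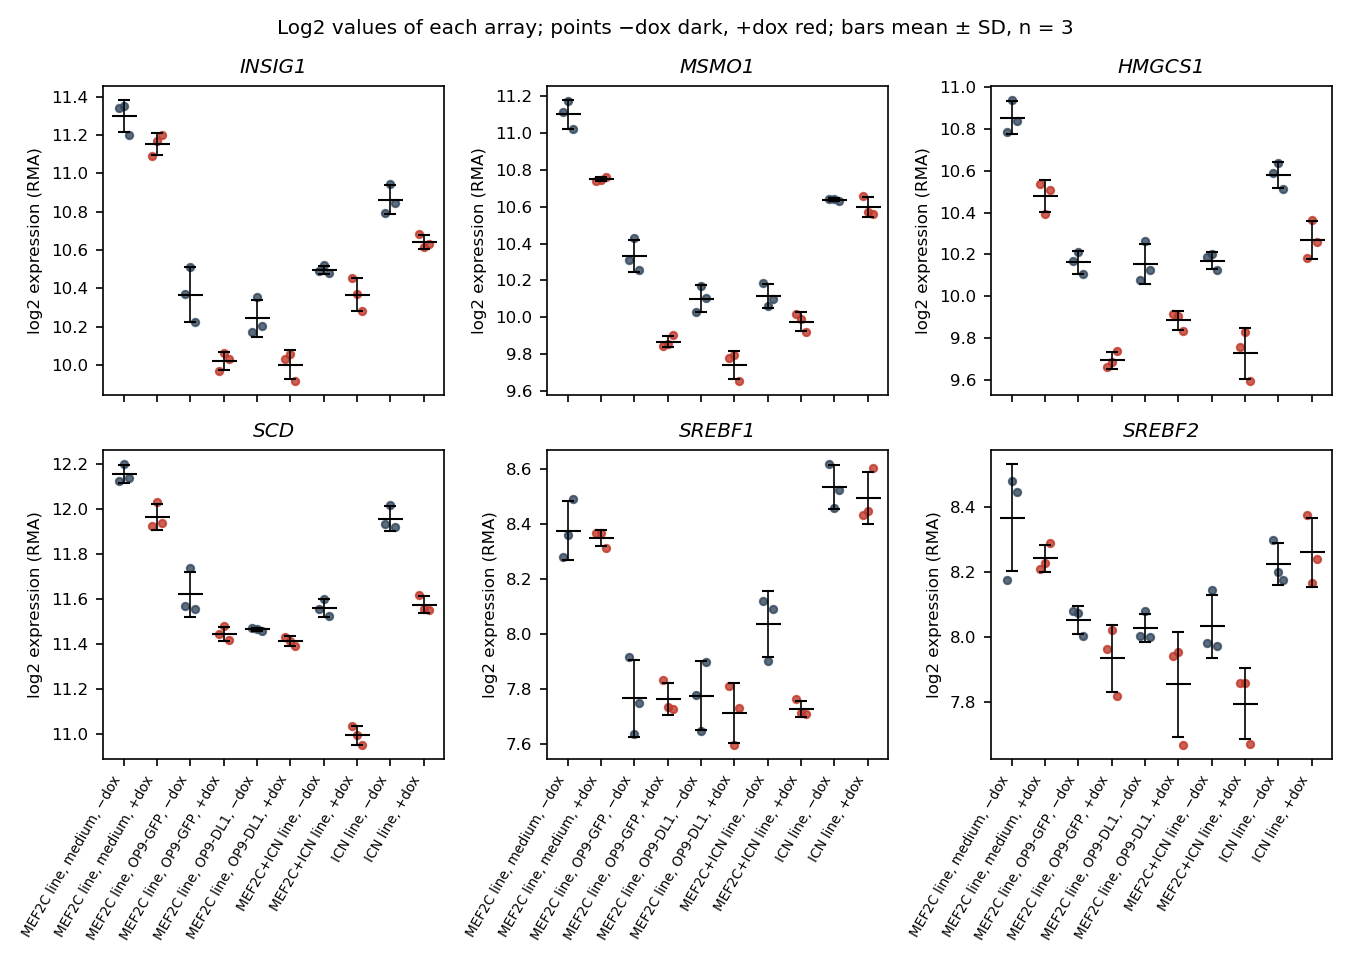
Log2 value of each array (points, dark without dox and red with dox) with mean ± SD of 3 arrays (bars) for 6 genes over the 10 groups. INSIG1 lies at 11.20 to 11.35 in medium without dox and at 10.22 to 10.51 on OP9-GFP without dox.

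Markers of the stroma were measured beside these values. Of 16 stromal cell genes 2 rose and 2 fell on OP9-GFP without dox, where 9.17% of all probe sets rose and 8.8% fell. The mean level over the 16 genes was 4.62 to 4.77 in the arrays in medium and 4.70 to 4.85 on OP9-GFP. Without dox COL1A2 (4.41 in medium and 5.21 on OP9-GFP) and COL6A3 (6.60 and 7.32) were higher on stroma. SPARC (9.32 and 8.98) and DCN (5.15 and 4.87) were lower there. LUM (2.10 and 2.17) and POSTN (3.24 and 3.28) were dim in both. Of 10 adipocyte genes 0 passed, with list means of 3.86 to 4.03 and 3.89 to 4.04. Human probe sets read mouse RNA poorly, and the part of stromal RNA in these differences was not tested. Of 12 proliferation genes 2 rose and 4 fell, with list means of 10.55 to 10.64 and 10.59 to 10.62. Among genes with a mean of at least 5, 17.4% rose and 17.9% fell.

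Wider lists outside the 27 were read on OP9-GFP beside the genes with a mean of at least 5. Of those genes 17.4% rose and 17.9% fell without dox, and 12.3% rose and 20.7% fell with dox. In lists of 8 or 9 genes, counts of 1 or 2 are near those shares. Of 16 measured fatty acid genes from a wider list 5 fell and 2 rose without dox. ACSS2, the cytosolic acetyl-CoA synthetase and a known SREBP target, fell, at -1.40 without dox and -1.05 with dox. ME1, malic enzyme, rose by 2.36 without dox with an SE of 0.49, and its 1.27 with dox did not pass. MID1IP1, a partner of acetyl-CoA carboxylase, fell, at -0.67 and -0.84. Of 8 sterol synthesis and uptake genes 3 fell in each state, among them the lysosomal sterol carrier NPC2 (-0.77 and -0.67) and TMEM97 (-0.32 and -0.27). Of 9 genes of SREBP processing 2 rose and 2 fell without dox, and 2 rose and 3 fell with dox. SPRING1, which helps SCAP, rose (0.46 and 0.32), while ERLIN2, a membrane protein of the endoplasmic reticulum, fell (-0.57 and -0.62). Of 8 cholesterol ester and droplet genes 1 rose and 2 fell without dox: PLIN2, a droplet coat protein, was higher by 0.30, and DGAT2 and LIPA were lower (-0.51 and -0.22). With dox 1 rose and 1 fell.

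For the Notch ligand OP9-DL1 was set against OP9-GFP. These are separate stroma lines, so the ligand and other differences between the lines cannot be told apart. Neither state gave a call by limma: 0 of 27 members passed without dox, where 0.928% of all probe sets rose and 0.439% fell, and 0 of 27 with dox, where 0.661% rose and 0.571% fell. At an unadjusted p under 0.05 there were 4 members in each state. The medians were -0.01 and 0.01. The 95% intervals of single genes ran from -0.36 to 0.66 over all members, both states together, so differences of that size in a single gene are not shut out. INSIG1 measured 10.17, 10.35 and 10.21 on OP9-DL1 without dox and 10.03, 10.06 and 9.92 with dox. Its differences from OP9-GFP were -0.12 ± 0.07, adjusted p = 0.55 and -0.02 ± 0.07, adjusted p = 0.98, with intervals of -0.27 to 0.03 and -0.17 to 0.13, and the arrays overlapped in both states. MSMO1 had the lowest adjusted p without dox. It measured 10.03, 10.17 and 10.11 on OP9-DL1, all below the OP9-GFP arrays, with a difference of -0.23 ± 0.06, adjusted p = 0.061. SCD on OP9-DL1 measured 11.47, 11.47 and 11.46 without dox and 11.43, 11.41 and 11.39 with dox. Its differences from OP9-GFP, -0.15 and -0.03, did not pass. SREBF1 (7.78, 7.65 and 7.90 without dox and 7.81, 7.60 and 7.73 with dox) and SREBF2 (8.005, 8.08 and 8.001 and 7.94, 7.96 and 7.67) overlapped their OP9-GFP values in both states. ABCA1, the sterol exporter, was the 1 gene of 49 measured on the wider lists of the pathway to pass, and it rose by 1.19 without dox and 1.07 with dox.

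Where dox induced MEF2C alone, fewer members fell in each single culture than on OP9-GFP against medium. ELOVL6 had the largest fall of the 27 in each culture. On stroma its lead was within the SE. It gave -0.47 on OP9-GFP beside -0.47 for HMGCS1, and -0.37 on OP9-DL1 beside -0.36 for MSMO1. In medium 8 members fell and 1 rose, with a median of -0.13, where 2.53% of all probe sets fell and 3.79% rose. On OP9-GFP 9 fell and 1 rose, with a median of -0.15, where 3.02% fell and 3.17% rose, and without the 2 arrays of low RNA quality 6 fell and 0 rose. On OP9-DL1 5 fell and 1 rose, with a median of -0.11, where 2.39% fell and 1.94% rose. Over the 3 cultures, 9 arrays with dox against 9 without gave 3 members that fell (ELOVL6, IDI1 and SQLE) and 1 that rose (AACS). There 2.55% of all probe sets fell and 2.85% rose, and among genes with a mean of at least 5, 5.88% and 5.38%. Fitted with the culture as a term, the same 18 arrays gave 13 members that fell and 1 that rose.

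ELOVL6 measured 10.07, 10.16 and 10.06 in medium without dox and 9.59, 9.63 and 9.57 with dox. On OP9-GFP it measured 9.99, 10.17 and 10.01 and 9.59, 9.56 and 9.59, and over OP9-DL1 9.92, 9.99 and 9.94 and 9.61, 9.59 and 9.53. The groups did not overlap in any culture. The differences were -0.50 ± 0.06, adjusted p = 1.5e-06 in medium, -0.47 ± 0.06, adjusted p = 4.8e-06 on OP9-GFP and -0.37 ± 0.06, adjusted p = 0.00014 with OP9-DL1. All 3 of its probe sets fell in medium, by 0.41 to 0.55. HMGCS1, whose other values are given above, measured 10.08, 10.26 and 10.12 on OP9-DL1 without dox and 9.91, 9.90 and 9.83 with dox. It fell without overlap in all 3 cultures, at -0.37, -0.47 and -0.27. Its second probe set did not pass, with -0.64, -0.08 and 0.03, and with the mean over both the call was lost in each culture (adjusted p = 0.10, 0.46 and 0.89). IDI1 fell in each as well, at -0.27, -0.35 and -0.33, on 2 of its 4 probe sets, while the others reached up to 0.27, 0.13 and 0.27. With the mean over its 4 probe sets it gave -0.06, -0.10 and -0.08 and was not called (adjusted p = 0.61, 0.29 and 0.55). MSMO1 measured 9.78, 9.79 and 9.65 on OP9-DL1 with dox, and its falls were -0.35 in medium, -0.46 with OP9-GFP stroma and -0.36 with OP9-DL1 stroma.

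The other members passed in some cultures only. INSIG1 fell on OP9-GFP (-0.34 ± 0.07, adjusted p = 0.003), on 2 of its 3 probe sets, and gave -0.14 in medium and -0.24 on OP9-DL1, which did not pass. Among its 3 probe sets 2 others fell in medium (to -0.42) and 1 other fell on OP9-DL1 (to -0.48). SREBF1 gave -0.03 in medium and -0.06 on OP9-DL1 and SREBF2 gave -0.13, -0.12 and -0.17, and neither passed in any of the 3. STARD4 fell in medium (-0.32) and on OP9-DL1 (-0.26). FADS2 measured 8.78, 8.68 and 8.78 on OP9-DL1 without dox and 8.58, 8.46 and 8.40 with dox, and the difference of -0.26 there did not pass. It fell, at -0.30 in medium and -0.46 on OP9-GFP. SCD fell in medium only (-0.19 ± 0.06, adjusted p = 0.041), a call lost when the arrays were centred on their medians (adjusted p = 0.16). SQLE measured 10.42, 10.49 and 10.47 on OP9-DL1 without dox and 10.33, 10.29 and 10.29 with dox. It fell on OP9-GFP (-0.23 ± 0.06, adjusted p = 0.022), and without the 2 arrays of low RNA quality the difference was -0.17, adjusted p = 0.14. LSS and ACAT2 fell on OP9-GFP (-0.31 and -0.23), which did not pass without those arrays (-0.23 and -0.19), and SC5D, a sterol desaturase, in medium (-0.28). DHCR7 on OP9-DL1 measured 7.85, 7.96 and 7.98 without dox and 7.90, 7.86 and 7.60 with dox, and it did not pass in any of the 3 cultures.

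AACS ran the other way. It measured 9.29, 9.40 and 9.36 in medium without dox and 9.71, 9.58 and 9.61 with dox, 9.49, 9.48 and 9.43 and 9.59, 9.62 and 9.58 on OP9-GFP, and 9.37, 9.34 and 9.45 and 9.66, 9.62 and 9.49 with OP9-DL1 stroma. The groups did not overlap in any culture. It rose by 0.29 ± 0.06, adjusted p = 0.002 in medium and by 0.20 ± 0.06, adjusted p = 0.043 on OP9-DL1, and 0.13 ± 0.06, adjusted p = 0.22 was measured on OP9-GFP. TM7SF2, a sterol reductase, rose on OP9-GFP (0.38 ± 0.10, adjusted p = 0.024), and without the 2 arrays of low RNA quality the value was 0.24, adjusted p = 0.17. Median centring ended the calls of SC5D and FADS2 in medium and of STARD4 and AACS on OP9-DL1 (adjusted p = 0.071, 0.078, 0.056 and 0.14).

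No difference of the dox effect between cultures passed by limma. OP9-GFP minus medium gave 0 of 27, where 0.0842% of all probe sets were higher and 0.258% lower, and 0 members at an unadjusted p under 0.05. OP9-DL1 minus OP9-GFP gave 0 of 27, where 0.0623% were higher and 0.0861% lower, and 1 member at an unadjusted p under 0.05. Their 95% intervals ran from -0.55 to 0.59 and from -0.68 to 0.59. Outside the 27 genes, ABCG1, a sterol exporter, fell in all 3 cultures (-0.35, -0.49 and -0.30). MYLIP, a ubiquitin ligase, fell in medium and on OP9-GFP (-0.58 and -0.65). INSIG2 fell on OP9-GFP (-0.31) and OP9-DL1 (-0.30). Of 12 proliferation genes 0 passed in any of the 3 cultures.

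**Figure D3:**
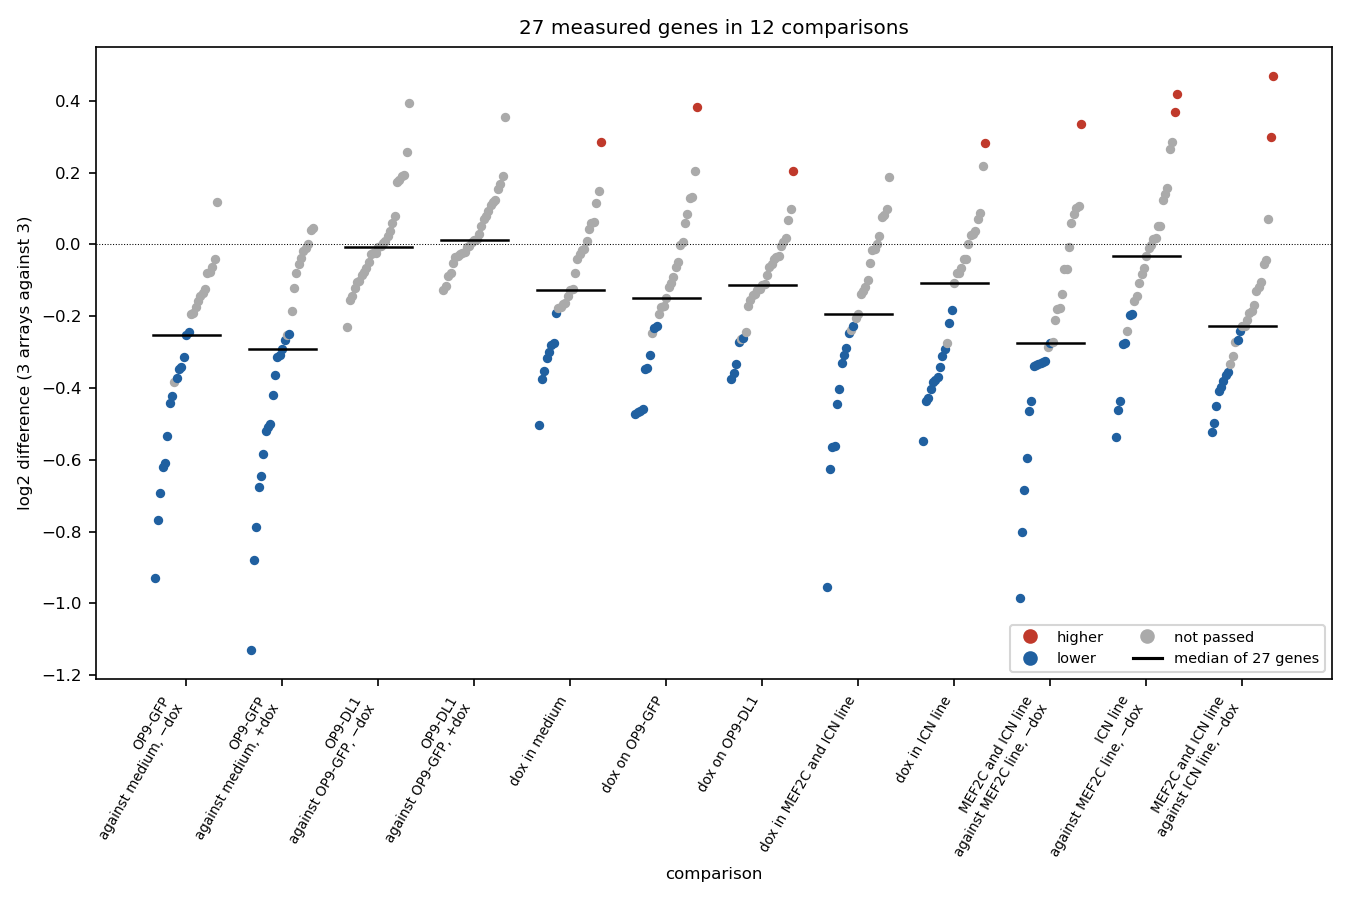
Log2 differences of the 27 measured genes (points, sorted within a comparison) in 12 comparisons of 3 arrays against 3, coloured by whether they passed and in which direction, with the median as a line. OP9-GFP against medium holds 14 and 16 genes that fell and 0 that rose, and OP9-DL1 against OP9-GFP holds 0 that passed.

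Where dox induced ICN alone, members of the fatty acid branch fell above all. In the ICN line 12 of 27 members fell and 1 rose, with a median of -0.11, where 6.76% of all probe sets fell and 5.69% rose. Among the 11331 genes with a mean of at least 5, 15.4% fell and 9.35% rose. Of the members, all 7 fatty acid genes fell, as did 3 of 9 squalene and sterol genes and 1 of 7 mevalonate genes. Without the 2 arrays of low RNA quality 10 fell and 0 rose, and without ICN with dox replicate 1 alone 7 fell and 0 rose. In that last fit FASN (-0.47, adjusted p = 0.069), ACLY, EBP, DHCR7, INSIG1 and LSS no longer passed, and the other 5 fatty acid genes passed. FASN, EBP and INSIG1 passed in the fit without both arrays. FASN had the largest difference (-0.55 ± 0.15, adjusted p = 0.013), read by 1 of its 2 probe sets, and ACACA fell, at -0.40 ± 0.08, adjusted p = 0.00045. ELOVL6 measured 9.55, 9.59 and 9.54 without dox and 9.03, 9.23 and 9.11 with dox. AACS measured 9.16, 9.15 and 9.16 and 8.78, 8.67 and 8.73, and SCD 11.94, 12.02 and 11.92 and 11.62, 11.56 and 11.55. None of these groups overlapped, and the differences were -0.44 ± 0.06, adjusted p = 6.5e-06 for ELOVL6, -0.43 ± 0.06, adjusted p = 6e-06 for AACS and -0.38 ± 0.06, adjusted p = 1.7e-05 for SCD. FADS2 measured 9.15, 9.13 and 9.04 and 8.81, 8.72 and 8.75, and fell, at -0.34, and ACLY fell, at -0.18, which did not pass without the 2 arrays of low RNA quality (adjusted p = 0.11).

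The sterol genes split under ICN. SQLE measured 10.40, 10.30 and 10.34 without dox and 9.96, 9.96 and 10.01 with dox, with no overlap and a difference of -0.37 ± 0.06, adjusted p = 0.00011. HMGCS1 measured 10.59, 10.64 and 10.51 and 10.18, 10.36 and 10.26, and fell, at -0.31. DHCR7 measured 8.34, 8.33 and 8.47 and 7.99, 8.07 and 8.20, and fell, at -0.29, a call lost without the 2 arrays of low RNA quality (-0.24, adjusted p = 0.11). MSMO1 measured 10.64, 10.64 and 10.63 and 10.66, 10.57 and 10.56, which overlapped, with a difference of -0.04 ± 0.06, adjusted p = 0.76. LSS rose (0.28 ± 0.08, adjusted p = 0.015) on 1 of its 3 probe sets, a call lost without those arrays (adjusted p = 0.058), and EBP fell, at -0.38. INSIG1 measured 10.79, 10.94 and 10.85 and 10.68, 10.61 and 10.63 and fell, at -0.22 ± 0.07, adjusted p = 0.049, on all 3 of its probe sets, and median centring ended the call (adjusted p = 0.10). SREBF1 (8.62, 8.46 and 8.52 without dox and 8.43, 8.45 and 8.60 with dox) and SREBF2 (8.30, 8.20 and 8.18 and 8.38, 8.17 and 8.24) overlapped and did not pass. ABCA1 rose by 1.69, and of 12 proliferation genes 5 rose and 0 fell, with list means of 10.65 to 10.68 without dox and 10.83 to 10.86 with dox. The part of proliferation in the members' differences was not tested.

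When MEF2C and ICN were induced together, 11 of 27 members fell and 0 rose, with a median of -0.19, where 8.03% of all probe sets fell and 5.26% rose. Among the 11331 genes with a mean of at least 5, 17.7% fell and 8.22% rose. Of the members, ELOVL6 had the largest fall, and measured 10.08, 10.02 and 9.98 without dox and 9.10, 9.10 and 9.03 with dox. These values were far apart, at -0.95 ± 0.06, adjusted p = 2.6e-12, a level of 51.6%, and its 3 probe sets fell by 0.92 to 0.95. FADS2 measured 8.98, 8.98 and 8.85 and 8.35, 8.27 and 8.31, SCD 11.56, 11.60 and 11.53 and 11.04, 11.00 and 10.95, and SQLE 10.27, 10.32 and 10.28 and 9.84, 9.67 and 9.67. All 3 fell without overlap, at -0.63, -0.57 and -0.56. The second probe set of FADS2 did not pass, with 0.09. HMGCS1 measured 10.19, 10.20 and 10.13 and 9.76, 9.83 and 9.59, and DHCR7 7.97, 7.90 and 7.92 and 7.58, 7.52 and 7.48. They fell, at -0.44 and -0.40, again with no overlap. IDI1 (-0.33), SC5D (-0.29) and LSS (-0.25) fell as well. Of the 4 probe sets of IDI1, 2 fell and 1 rose, with differences of up to 0.31, and with the mean over a gene's probe sets these 3 and HMGCS1 were not called (adjusted p = 0.91 for IDI1, 0.22 for SC5D, 0.17 for LSS and 0.23 for HMGCS1). AACS measured 9.47, 9.39 and 9.50 and 9.27, 9.23 and 9.18, and fell, at -0.23.

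Of the regulators, SREBF1 was the 1 that passed. It measured 8.12, 7.90 and 8.09 without dox and 7.76, 7.71 and 7.71 with dox, with no overlap and a difference of -0.31 ± 0.08, adjusted p = 0.012. Its second probe set did not pass, with -0.20. SREBF2 measured 7.98, 8.15 and 7.97 and 7.86, 7.86 and 7.67, lower, at -0.24 ± 0.09, adjusted p = 0.077. INSIG1 measured 10.49, 10.52 and 10.48 and 10.45, 10.37 and 10.28, a difference of -0.13 ± 0.07, adjusted p = 0.3, and MSMO1 10.19, 10.06 and 10.10 and 10.02, 9.99 and 9.92, a difference of -0.14 ± 0.06, adjusted p = 0.16. Neither gene's groups overlapped. So the pair that led the change on stroma did not pass here. Outside the 27 genes, those tied to sterol sensing by LXR went both ways. ABCA1 rose by 2.83, while MYLIP (-1.65), ABCG1 (-0.79) and the receptor NR1H3 (-0.33) fell. The mean level of the 8 measured genes of that list was 6.44 without dox and 6.46 with dox.

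Whether the joint induction differed from the single ones was tested as a difference of dox effects. Against MEF2C in medium, 4 of 27 members were lower and 1 higher, where 5.36% of all probe sets were lower and 2.54% higher. Among the 11331 genes with a mean of at least 5, 12.3% were lower and 3.79% higher, so these counts are near that share. AACS (-0.51 ± 0.08, adjusted p = 8.5e-05) changed direction, from 0.29 in medium to -0.23 in the joint line. ELOVL6 (-0.45 ± 0.08, adjusted p = 0.00059), SQLE (-0.39 ± 0.09, adjusted p = 0.0042) and SCD (-0.38 ± 0.08, adjusted p = 0.0022) fell further in the joint line. With the mean over its probe sets SCD was not called (-0.17, adjusted p = 0.51). STARD4 (0.42 ± 0.10, adjusted p = 0.0065) fell with MEF2C in medium and gave 0.10 in the joint line. Against ICN alone, 2 of 27 members were lower and 0 higher, where 4.5% of all probe sets were lower and 3.14% higher. Among genes with a mean of at least 5, 9.29% were lower and 6.02% higher, so these counts are near or below that share. The 2 members were ELOVL6 (-0.52 ± 0.08, adjusted p = 0.00012) and LSS (-0.53 ± 0.11, adjusted p = 0.002), which rose with ICN and fell with both. With the mean over its probe sets LSS gave -0.35, adjusted p = 0.14. The lines also differ without dox, so line and construct cannot be told apart in these tests.

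**Figure D4:**
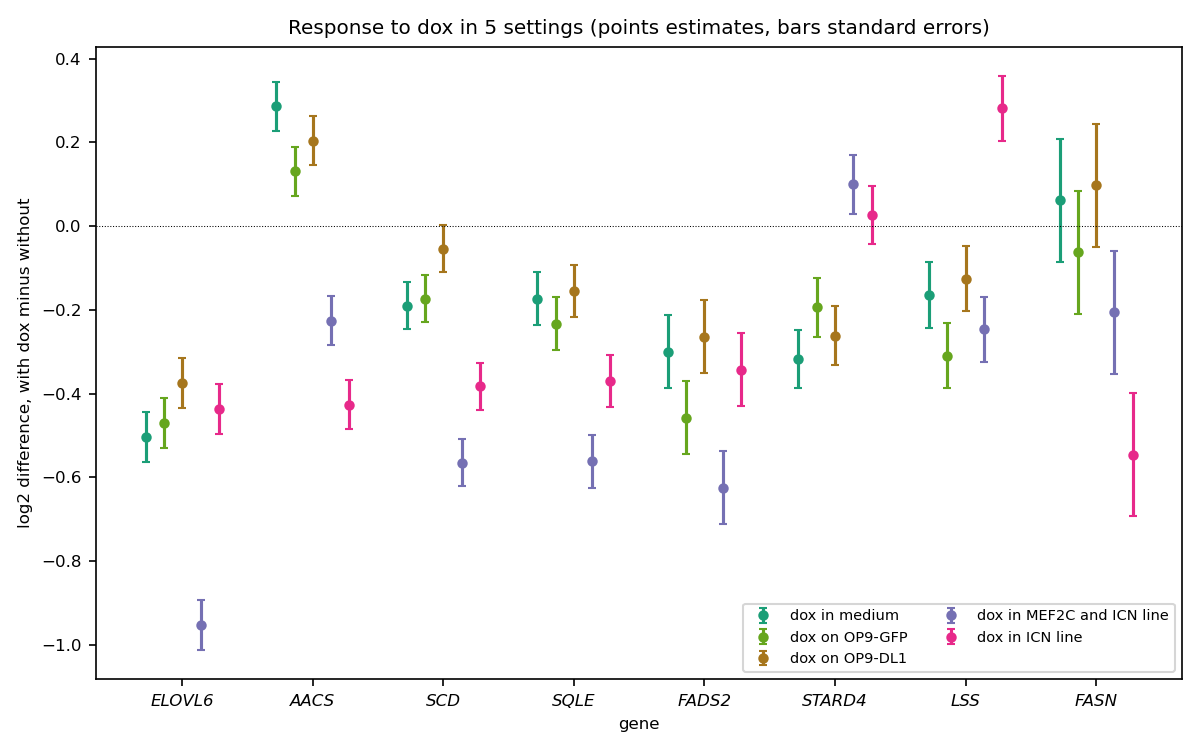
Log2 difference with dox minus without (points) ± SE (bars), 3 arrays against 3, for 8 genes in 5 settings. ELOVL6 lies below 0 in all 5 and lowest in the joint line (-0.95), AACS lies above 0 with MEF2C alone and below 0 with ICN, and LSS lies above 0 in the ICN line alone.

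Over the 5 inductions, ELOVL6 and HMGCS1 were called lower in 5 of 5, and IDI1 and FADS2 in 4 of 5. With the mean over a gene's probe sets ELOVL6 kept its 5 calls, while HMGCS1 lost all 5 (adjusted p = 0.10 to 0.89) and IDI1 all 4 (adjusted p = 0.29 to 0.91). FDPS, MVK, PMVK, MVD, NSDHL, HSD17B7 and SREBF2 were not called in any. These settings share a line or medium in part, and each has its own arrays.

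The lines differed before dox was added. The joint line against LOUCY_MEF2C-BFP cells in medium had 13 members lower and 1 higher, with a median of -0.28, where 9.04% of all probe sets were lower and 11.2% higher. MSMO1 was lower, at -0.99 ± 0.06, adjusted p = 6.2e-12, a level of 50.5%, INSIG1 at -0.80 ± 0.07, adjusted p = 6.2e-09, HMGCS1 at -0.68 ± 0.07, adjusted p = 4.4e-08 and SCD at -0.59 ± 0.06, adjusted p = 1.2e-08, with no overlap for any of them. FDPS (-0.46), DHCR7 (-0.44), SREBF1 (-0.34), SREBF2 (-0.33) and SQLE (-0.33) were lower too, and TM7SF2 was higher (0.33). ELOVL6 (-0.07) and AACS (0.11) did not pass. Nor did SC5D (-0.14), while its other probe set was lower, at -1.38. The ICN line against the same cells had 7 lower and 2 higher, with a median of -0.03, where 9.35% were lower and 12% higher. ELOVL6 (-0.54 ± 0.06, adjusted p = 2.1e-07), MSMO1 (-0.46) and INSIG1 (-0.44) were the furthest down. PMVK (0.42 ± 0.13, adjusted p = 0.019) and HSD17B7, a sterol ketoreductase (0.37 ± 0.12, adjusted p = 0.035), were higher, the second with overlapping arrays, and neither stayed past the threshold when replicate 2 of the MEF2C line in medium without dox was left out, where 5 were lower and 0 higher. SREBF1 (0.16) and SREBF2 (-0.14) did not pass. Nor did SC5D (-0.03), while its other probe set was lower, at -1.32. The joint line against the ICN line had 10 lower and 2 higher, with a median of -0.23, where 3.98% were lower and 2.93% higher. MSMO1 (-0.52), SREBF1 (-0.50) and DHCR7 (-0.45) were lower, and ELOVL6 (0.47) and AACS (0.30) higher. SREBF1 passed on 1 of its 2 probe sets here and in the joint line against LOUCY_MEF2C-BFP cells, and the other gave -0.05 and -0.08. ACSS2 was lower in both lines than in LOUCY_MEF2C-BFP cells, at -0.76 in the joint line and -1.13 in the ICN line. Among the 11331 genes with a mean of at least 5, 17.3%, 16.9% and 8.06% were lower in these 3 comparisons, in the order given. The shares that were higher were 19.5%, 21% and 5.72%. These 3 comparisons share arrays with each other and with those on stroma and dox.

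As a description over the 10 group means, 9 of the other 26 members followed INSIG1 with a Pearson r above 0.8. MSMO1 (0.95), FDPS (0.93) and HMGCS1 (0.90) were the nearest, and SREBF2 (0.86) and SREBF1 (0.83) were among the 9. SQLE (0.29), ELOVL6 (0.15), PMVK (0.00), TM7SF2 (-0.03) and AACS (-0.21) stood apart. The groups share lines and arrays were normalized together, so these r values are no test. The range of group means was largest for MSMO1 (1.36), INSIG1 (1.30), HMGCS1 (1.16) and SCD (1.16), and smallest for NSDHL (0.31), a sterol dehydrogenase, and MVK (0.32).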

How the data were processed

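The 30 arrays, 3 in each of 10 groups by the sample labels, were deposited as log2 values after RMA by the authors (affy 1.64.0 with R 3.6.3, by the submitters' notes). They were used as deposited, without 62 control probe sets. Arrays carry no read depth, and their number limits the precision. Genes were named through the platform annotation: of the 54613 probe sets tested, 41091 carry 1 symbol, 1801 several, and 11721 are not listed.

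Tests used limma 3.58.1 (R 4.3.3), with p-values adjusted over all 54613 probe sets by the Benjamini-Hochberg method. One model over 10 groups gave 12 comparisons and 4 differences of dox effects. The 9 arrays with dox over the 3 cultures were set against the 9 without, with no covariate, as in the methods. The steps were tested on simulated data.

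The members, wider lists and alternatives were chosen with earlier results of these data known. Array values are given for SREBF1, SREBF2, INSIG1 and the 8 members with the largest range of group means. Outside the 27, genes of the lists that passed could be named, at most 4 per comparison and list. Alternatives were a filter on dim probe sets, median centring, a trended robust prior, fits on the compared groups alone, a replicate block, the mean over probe sets, and arrays or cultures left out. Leaving out the 2 arrays of low RNA quality was chosen after seeing the data.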

Additional observations from a re-analysis of the deposited data

Results flagged for a closer look

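Responses to dox that differed between lines by the test of the difference itself were set aside for a closer look. Between the joint line and MEF2C in medium they were AACS (-0.51), ELOVL6 (-0.45), SQLE (-0.39), SCD (-0.38) and STARD4 (0.42). Between the joint line and the ICN line they were LSS (-0.53) and ELOVL6 (-0.52). With the mean over a gene's probe sets SCD gave -0.17, adjusted p = 0.51, and LSS -0.35, adjusted p = 0.14, and neither was called. All are joint line minus the other, on the log2 scale. Among genes with a mean of at least 5, 12.3% were lower and 3.79% higher in the first test, and 9.29% and 6.02% in the second. The members' counts are near or below those shares. Arrays could not be searched for outliers within groups, because each group holds 3.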

How the results depend on the processing

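The counts are of members that passed, of 27. Of 125 pairs of a member and a comparison that passed, recomputed 1683 times in all, 0 changed direction and 208 values lost the call. ELOVL6 kept its call in each alternative tried for the 5 inductions, apart from the study's thresholds over the 3 cultures. Fits on only the groups compared gave 1 for dox in medium, 3 on OP9-GFP, 3 on OP9-DL1, 6 in the ICN line, 6 for OP9-GFP against medium without dox and 5 for the ICN line against the MEF2C line. Among probe sets with a mean of at least 5, OP9-DL1 against OP9-GFP without dox gave 1, the joint line's dox effect minus that of ICN 4, and dox over the 3 cultures 8. A trended and robust prior gave 2 and 5 for the first 2 of these. The mean over a gene's probe sets gave 6 for dox on OP9-GFP, 7 for joint dox and 1 for OP9-DL1 against OP9-GFP without dox. For dox over the 3 cultures, where 4 passed, the culture as a term gave 14, also with a replicate block. The study's thresholds gave 0, the methods' test 11 unadjusted and 4 after Benjamini-Hochberg, and leaving out medium, OP9-GFP or OP9-DL1 gave 9, 2 and 1. Without the 2 arrays of low RNA quality dox on OP9-GFP gave 6. The cause of these changes was not tested, beyond the fewer arrays or probe sets in some.

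Leaving out 1 array at a time gave 6 to 7 for dox in medium, 6 to 12 on OP9-GFP (6 without OP9-GFP without dox replicate 2), 3 to 5 on OP9-DL1 (3 without replicate 2 of either group) and 7 to 12 for ICN (7 without ICN with dox replicate 1). It gave 8 to 11 for joint dox, 12 to 15 and 12 to 16 for OP9-GFP against medium without and with dox, and 0 to 1 for OP9-DL1 against OP9-GFP without dox (1 without OP9-GFP without dox replicate 3). The ICN line against the MEF2C line gave 5 to 9 (5 without replicate 2 of the MEF2C line in medium without dox), the joint line against these 13 to 14 and 11 to 12, and the differences of dox effects 5 to 7 and 2 to 3. Leaving out a replicate number over the 3 cultures gave 1 to 2. Replicate numbers did not pair the arrays: in 0 of 12 comparisons did all pairs of deviations correlate above 0.1. With a replicate block the counts were 9, 11, 7, 13 and 11 for dox in medium, on OP9-GFP, on OP9-DL1, in the ICN line and in the joint line, and 14 and 16 for OP9-GFP against medium. Array signal, not depth, limits MVD, the dimmest member, whose arrays within groups had an SD of 0.25.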
